A study of Sorghum bicolor with 18 samples.

Results

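Sorghum genes of abscisic acid (ABA) synthesis, ABA breakdown and carotenoid cleavage were followed here, 7 out of 34211 genes in the deposited table. They were taken as a list of identifiers whose best Arabidopsis match carries the name NCED9 (Sobic.001G155300 and Sobic.002G037400), ZEP (Sobic.006G097500), CYP707A4 (Sobic.002G225400), CCD1 (Sobic.001G509200 and Sobic.010G050300) or CCD4 (Sobic.004G268500). The names are those of the matched Arabidopsis genes, so the enzyme made by each sorghum gene is known here only by similarity. RNA was sequenced from axillary buds of Sorghum bicolor cultivar 100M, from the axil of the first leaf of seedlings on which the treatment began 7 days after sowing. In leaf-removed plants the coleoptile and the first leaf were peeled off the culm, which exposed the bud. Intact plants kept both. Buds were taken after 1, 3 or 6 h, which gave 6 groups of 3 libraries, each library made from 15 pooled buds. Of 4 pools harvested per group, 3 were sequenced, chosen by RNA quality, so n = 3 pools in every group and the p-values measure the spread between pools. All plants shared the cultivar and the growth chamber. Time of day moved together with time after removal, so the intact group of the same time is the comparison for each effect. Because whole buds were used, more RNA per cell and more cells of a type cannot be told apart.

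ABA is made from carotenoids. Zeaxanthin epoxidase (ZEP) makes the epoxidised precursors, a 9-cis-epoxycarotenoid dioxygenase (NCED) cuts them in the committed step, and short-chain alcohol dehydrogenase (ABA2) and aldehyde oxidase finish the hormone. CYP707A enzymes are ABA 8'-hydroxylases and start its inactivation. ABA is widely studied as a hormone that holds axillary buds dormant. CCD1 and CCD4 belong to the same dioxygenase family as NCED, but they cut carotenoids into smaller apocarotenoids and are not steps of ABA synthesis, so the group label is broader than their function.

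Each library held 21.4 to 45.8 M exon reads (M is 1e6; median 28.7 M). Between 22543 and 25413 genes per library had a read. Summed markers of meristem and axillary bud (12 genes, none at 0 in all libraries) came to 43.6 to 69.8 CPM in leaf-removed buds against 82.6 to 126 CPM in intact buds at 1 h. They reached 83.6 to 105 CPM against 80.2 to 93.1 CPM at 3 h and 51.9 to 95.1 CPM against 74.4 to 135 CPM at 6 h. The leaf marker RBCS1A, the 1 gene matched of 5 leaf loci, was higher in every leaf-removed pool, at 490 to 543 CPM against 236 to 334 CPM in intact buds at 1 h, 724 to 777 CPM against 308 to 384 CPM at 3 h and 567 to 673 CPM against 193 to 248 CPM at 6 h. Summed markers of stem secondary wall (7 genes) were 67.5 to 116 CPM in leaf-removed and 69.4 to 83.8 CPM in intact buds at 1 h, 62.2 to 67.4 CPM and 60.9 to 67.7 CPM at 3 h, and 41.0 to 62.7 CPM and 48.7 to 82.2 CPM at 6 h. The part of these markers in the results below was not tested. CPM is exon reads per 1e6 after TMM scaling.

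Within their groups, 5 libraries deviated in the same direction along 1 component that held 49.9% of the within-group variance: leaf-removed 1 h pool d, leaf-removed 3 h pool b, leaf-removed 6 h pool d, intact 1 h pool c and intact 6 h pool d. Intron reads made up 4.65% to 7.23% of gene reads in these 5 libraries and 3.12% to 4.82% in the other 13. The genes described here took part in that deviation. NCED9 Sobic.001G155300 was below its group mean in all 5, by -2.08 to -0.81 on the log2 scale, while the other 13 libraries lay between -0.17 and 1.12. CCD4 was below its group mean in all 5 as well (-1.72 to -0.25, against -0.18 to 1.04 in the others). CCD1 Sobic.001G509200 was above its group mean in all 5 (0.26 to 0.52, against -0.48 to 0.17). ZEP and CYP707A4 moved least, with deviations of -0.05 to 0.25 and -0.26 to 0.03 in the 5 libraries. The exon read tests were also run without these 5 libraries, a choice made after seeing the data, and those values stand beside a printed value where its call differed. The 5 were picked by their distance from their own group means, so leaving them out narrows the spread within groups by construction. Every group but intact 3 h then lost 1 of its 3 pools. A call gained in these fits is therefore no added support and shows only how the call depends on these libraries. The intron read tests were not run without them.

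**Figure D1:**
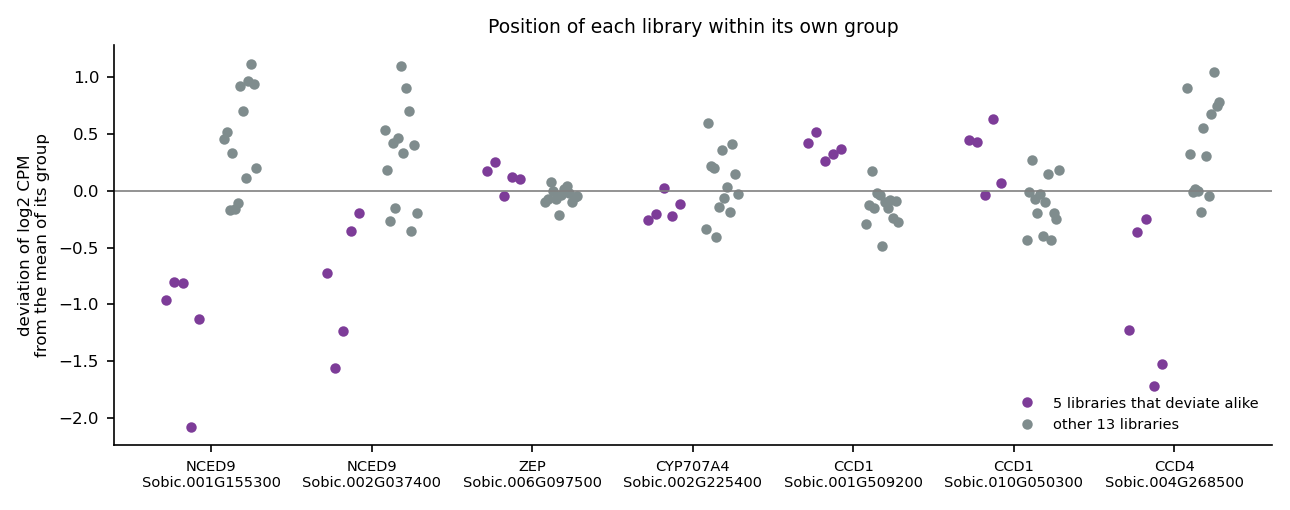
Each point is 1 library, placed by its deviation in log2 CPM from the mean of its own group (vertical axis) for each of the 7 genes (horizontal axis). The 5 libraries that deviate alike lie below 0 for both NCED9 genes and CCD4 and above 0 for CCD1 Sobic.001G509200.

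At 1 h, both NCED9 genes, ZEP and CYP707A4 rose after leaf removal, and CYP707A4 rose most, 41.9-fold. NCED9 Sobic.002G037400 rose on 51 reads against 5. At 3 h, CYP707A4 (4.14-fold), ZEP (1.45-fold), CCD1 Sobic.001G509200 (1.61-fold) and CCD4 (3.5-fold) were higher in leaf-removed buds. At 6 h, ZEP (1.41-fold) and CCD1 Sobic.001G509200 (1.87-fold) were higher. CYP707A4 then stood at 6.89 ± 0.635 CPM in leaf-removed buds and 7.62 ± 1.74 CPM in intact buds (SD, n = 3 each). Of the 7 genes, 0 were called lower by edgeR at any of the 3 times, while 1 at 1 h, 1 at 3 h and 2 at 6 h were lower at an unadjusted p under 0.05. DESeq2 called 1 lower, NCED9 Sobic.002G037400 at 6 h, and limma's voom 0.

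A gene was called at a Benjamini-Hochberg adjusted p under 0.05 over 21852 tested genes, in the edgeR quasi-likelihood test. All 7 genes passed the filter on low counts, NCED9 Sobic.002G037400 largely through leaf-removed buds at 1 h, where it is among the genes called. The background was large: leaf removal changed 48.9% of the tested genes at 1 h (24.8% higher), 34.0% at 3 h (17.8% higher) and 34.0% at 6 h (18% higher). Set against that, 4 of the 7 were called at 1 h, 4 at 3 h and 2 at 6 h, all higher. The 3 leaf-removed and 3 intact CPM values did not overlap for 5 of the 7 at 1 h, for 6 at 3 h and for 2 at 6 h. Over all tested genes, 55.0%, 47.4% and 46.1% did not overlap. The counts called higher lay above the matching shares, and those without overlap lay above at 1 and 3 h and below at 6 h. Counts out of 7 are small, and the genes were chosen with earlier results of these data known. The counts were not tested against these shares, and the results below rest on the single genes. The count at 3 h was 2 without intact pool a, b or c or leaf-removed pool c of 3 h, or leaf-removed pool a of 6 h. The count at 6 h was 1 without leaf-removed pool d of 6 h.

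**Figure D2:**
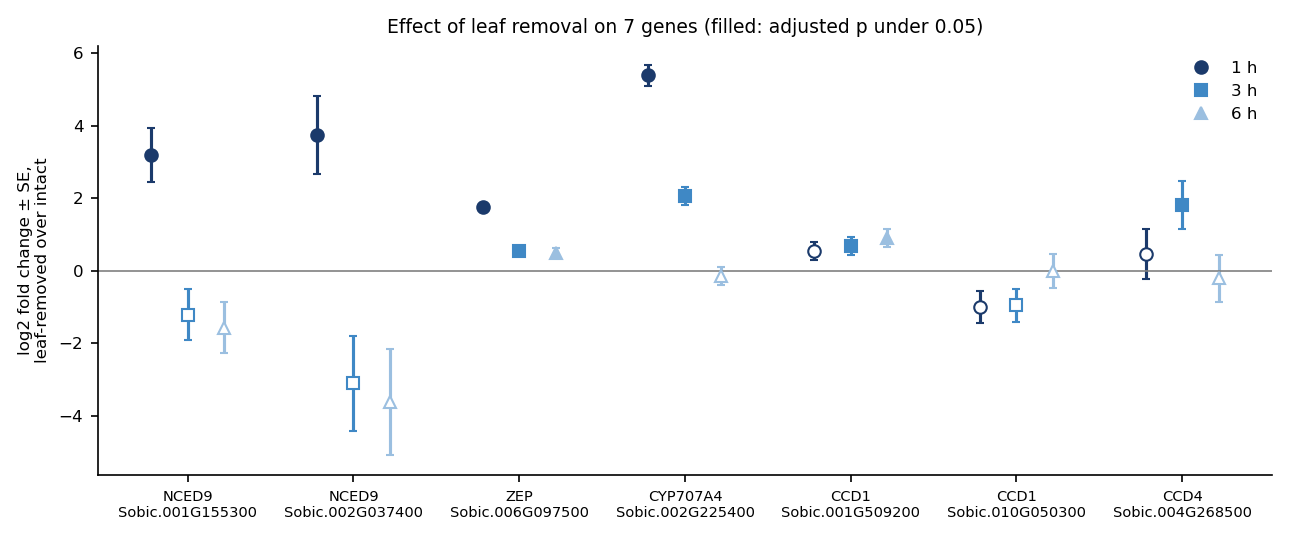
Log2 fold change after leaf removal, leaf-removed over intact, with its standard error, for each of the 7 genes at 1 h (circles), 3 h (squares) and 6 h (triangles); filled symbols have an adjusted p under 0.05. The filled symbols all lie above 0, and the open symbols of both NCED9 genes at 3 and 6 h lie below it.

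NCED9 Sobic.001G155300, an NCED of the committed step, had 13.1, 8.73 and 4.58 CPM in leaf-removed pools b, c and d at 1 h, against 1.22, 0.413 and 1.27 CPM in intact pools b, c and d. Every leaf-removed pool lay above every intact pool, and pool d, the lowest of the leaf-removed pools, still exceeded the highest intact pool. The log2 fold change was 3.19 ± 0.73 (SE; adjusted p = 0.0019, edgeR; 95% interval 1.59 to 4.79), a 9.11-fold rise. At 3 h the order was the other way, at 0.162, 1.83 and 2.04 CPM in leaf-removed pools b, c and d against 2.71, 3.86 and 2.73 CPM in intact pools a, b and c. The groups did not overlap, but the log2 difference of -1.21 ± 0.70 did not pass the test (adjusted p = 0.20; interval -2.74 to 0.31). The low value of leaf-removed pool b, with 5 reads, came from 1 of the 5 libraries that deviate alike. At 6 h, leaf-removed pools a, b and d had 1.62, 0.942 and 0.334 CPM and intact pools a, c and d had 2.38, 4.94 and 1.45 CPM. The groups overlapped, and the log2 difference of -1.57 ± 0.71 did not pass (adjusted p = 0.10). Without the 5 libraries it was -1.54 at 6 h with an adjusted p of 0.0045, and -0.68 at 3 h with an adjusted p of 0.12. Leaving out leaf-removed 3 h pool b alone also moved the 6 h difference past the threshold, at -1.55 (adjusted p = 0.042).

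NCED9 Sobic.002G037400 was close to the limit of detection, with 95 reads in 12 of 18 libraries. At 1 h it had 20, 25 and 6 reads in leaf-removed pools b, c and d, against 3, 0 and 2 reads in intact pools b, c and d. Every leaf-removed pool held more reads than every intact pool, and 51 reads stood against 5. The ratio after scaling was 14.0 with a 95% counting interval of 5.62 to 44.9, and the gene rose by test (adjusted p = 0.0095, edgeR). At 3 h there were 0, 2 and 0 reads in leaf-removed pools b, c and d against 5, 9 and 7 reads in intact pools a, b and c, a ratio of 0.10 (0.0114 to 0.409). At 6 h there were 1, 0 and 0 reads in leaf-removed pools a, b and d against 5, 10 and 0 reads in intact pools a, c and d, a ratio of 0.0611 (0.00145 to 0.397). Leaf-removed pools were thus the low ones at both later times, without overlap at 3 h and with overlap at 6 h, where intact pool d had no read. Neither difference passed the test (adjusted p = 0.078 at 3 h and 0.069 at 6 h), though that at 6 h did without the 5 libraries (adjusted p = 0.013) or without intact 6 h pool d alone (0.024), and that at 3 h did without intact 6 h pool d (0.048). The counting intervals use reads summed over the 3 pools of a group, so they cover sampling of reads only and leave out the spread between pools. They are no test of leaf removal. Reads that carry no molecular identifier may also be copies of 1 molecule. This gene had 10 or more reads in only 3 libraries, 2 of them leaf-removed at 1 h, so it passed the filter on low counts largely through the group where it was high.

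**Figure D3:**
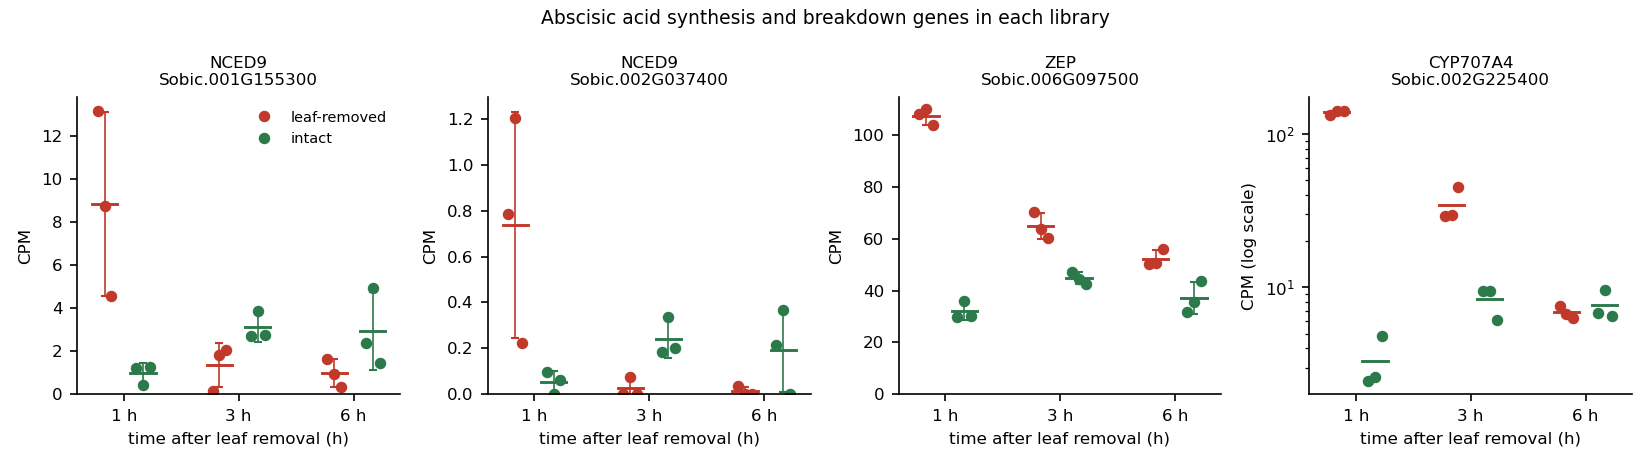
Expression in CPM of the NCED9 genes, ZEP and CYP707A4 in each library (points), by time after leaf removal, leaf-removed left of intact. Horizontal lines are group means and vertical bars their SD (n = 3); the CYP707A4 axis is logarithmic and has no SD bars. At 1 h the leaf-removed points lie above the intact points in all 4 panels, and at 6 h CYP707A4 overlaps between the groups.

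ZEP, which acts upstream of NCED, had 108, 110 and 104 CPM in leaf-removed pools b, c and d at 1 h, against 29.8, 36.0 and 30.3 CPM in intact pools b, c and d. At 3 h leaf-removed pools b, c and d had 70.3, 63.9 and 60.4 CPM and intact pools a, b and c had 47.1, 44.6 and 42.5 CPM. At 6 h leaf-removed pools a, b and d had 50.3, 50.5 and 56.0 CPM and intact pools a, c and d had 31.7, 35.7 and 43.7 CPM. Leaf-removed pools were higher at every time with no overlap. ZEP rose at each time by edgeR, with log2 fold changes of 1.74 ± 0.12 at 1 h (adjusted p = 1.6e-08), 0.54 ± 0.12 at 3 h (0.0023) and 0.50 ± 0.12 at 6 h (0.0042). ZEP kept its call at all 3 times in each of the 18 fits that left out 1 library, with log2 fold changes of 1.61 to 1.83, 0.48 to 0.62 and 0.42 to 0.68. Scaled by library totals and not by TMM, the 6 h value was 0.31 and did not pass (adjusted p = 0.093).

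CYP707A4, the ABA 8'-hydroxylase gene, had 132, 141 and 140 CPM in leaf-removed pools b, c and d at 1 h, against 2.47, 2.62 and 4.78 CPM in intact pools b, c and d. The 3 leaf-removed pools lay close together and far above the intact pools. CYP707A4 rose by 5.39 ± 0.29 on the log2 scale (adjusted p = 9.5e-10, edgeR), the smallest adjusted p of the 7 genes. At 3 h it had 29.1, 29.7 and 44.9 CPM in leaf-removed pools b, c and d against 9.53, 9.41 and 6.15 CPM in intact pools a, b and c. The groups still did not overlap, and the log2 fold change was 2.05 ± 0.25 (adjusted p = 1.3e-05). At 6 h leaf-removed pools a, b and d had 7.59, 6.74 and 6.35 CPM, within the span of 6.77, 9.62 and 6.48 CPM in intact pools a, c and d apart from pool d. The log2 difference at 6 h was -0.14 ± 0.25 (adjusted p = 0.69), with an interval of -0.69 to 0.40 that holds both small rises and small falls.

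Reads from introns, which come largely from RNA not yet spliced, were frequent enough for tests in CYP707A4, ZEP and CCD1 Sobic.001G509200. Both NCED9 genes had no intron read, although Sobic.001G155300 had 1441 exon reads. Whether the NCED9 genes have introns was not determined here, so the 0 is no measure of their unspliced RNA. CCD1 Sobic.010G050300 and CCD4 had 3 and 73 intron reads in all 18 libraries. CYP707A4 had 1274, 1121 and 1366 intron reads in leaf-removed pools b, c and d at 1 h, against 23, 40 and 53 in intact pools b, c and d. Its intron reads rose by 5.98 ± 0.44 on the log2 scale (adjusted p = 3.9e-09, edgeR over 14725 genes, of which 24.1% were called). At 3 h there were 210, 161 and 195 intron reads in leaf-removed pools against 104, 53 and 97 in intact pools, a log2 fold change of 1.42 ± 0.37 (adjusted p = 0.013, with 12.9% of genes called), and at 6 h the difference was -0.36 ± 0.38 (adjusted p = 0.61, with 10.7% called). The intron share of CYP707A4 reads at 1 h was 27.5%, 27.7% and 26.4% in leaf-removed buds against 23.0%, 29.6% and 25.1% in intact buds. At 3 h it was 18.9%, 16.8% and 14.1% in leaf-removed buds against 28.6%, 17.4% and 31.4% in intact buds, where 1 intact pool lay inside the leaf-removed range. ZEP intron reads rose at 1 h (log2 fold change 2.62 ± 0.33, adjusted p = 5.2e-06, edgeR), and their log2 differences at 3 and 6 h were 0.74 ± 0.34 (adjusted p = 0.17) and 0.03 (0.97).

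The intron reads of CCD1 Sobic.001G509200 rose at 6 h. At that time leaf-removed pools a, b and d had 43, 62 and 52 intron reads and intact pools a, c and d had 3, 3 and 30. The groups did not overlap, and intact pool d, 1 of the 5 libraries that deviate alike, held most of the 36 intact reads. The log2 fold change of intron reads was 1.94 ± 0.42 at 6 h (adjusted p = 0.0044, edgeR), against 1.04 ± 0.38 at 1 h (0.052) and 1.07 ± 0.38 at 3 h (0.067). The intron share at 6 h was 1.85%, 2.03% and 2.17% in leaf-removed pools and 0.287%, 0.336% and 1.43% in intact pools.

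**Figure D4:**
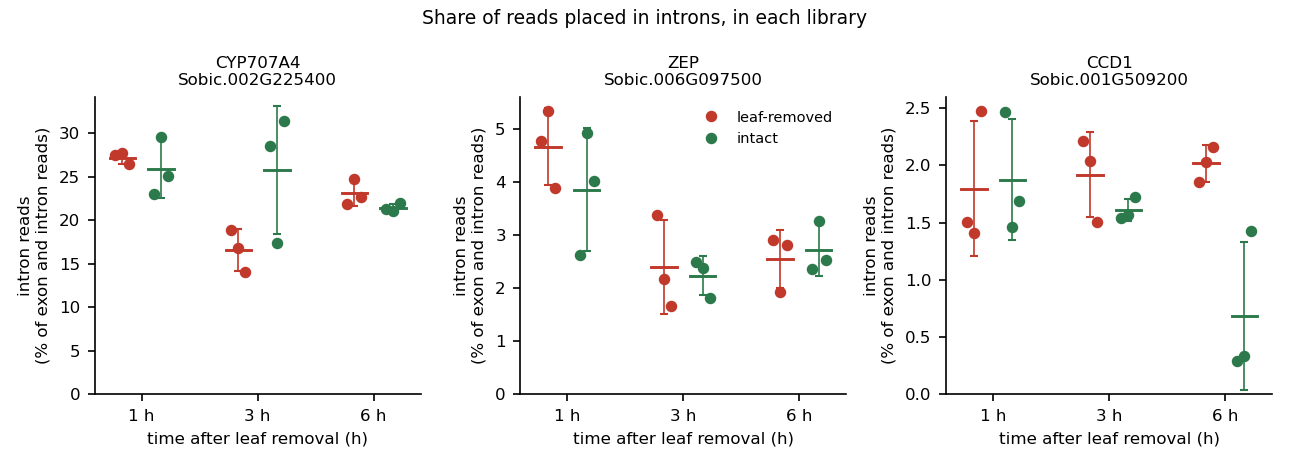
Intron reads as a percentage of exon and intron reads of CYP707A4, ZEP and CCD1 Sobic.001G509200 in each library (points), by time, leaf-removed left of intact, with group means (lines) and SD (bars, n = 3). For CYP707A4 the 3 h leaf-removed points lie between 14.1% and 18.9%, and for CCD1 at 6 h the leaf-removed points lie above all 3 intact points.

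CCD1 Sobic.001G509200, a carotenoid cleavage gene, had 77.3, 74.3 and 98.9 CPM in leaf-removed pools b, c and d at 1 h, against 45.5, 74.3 and 51.0 CPM in intact pools b, c and d. The groups met at 74.3 CPM, where intact pool c is 1 of the 5 libraries that deviate alike, and the log2 difference of 0.55 ± 0.25 did not pass the test (adjusted p = 0.075). Without intact pool c it was 0.79 and passed (adjusted p = 0.024), as it did without the 5 libraries (0.65, adjusted p = 0.0018). At 3 h leaf-removed pools b, c and d had 120, 91.1 and 81.6 CPM and intact pools a, b and c had 67.8, 54.2 and 59.6 CPM. The groups did not overlap, and the gene rose by 0.69 ± 0.25 (adjusted p = 0.041, edgeR). At 6 h leaf-removed pools a, b and d had 82.0, 72.1 and 112 CPM and intact pools a, c and d had 44.4, 32.6 and 65.3 CPM, again without overlap. The log2 fold change was 0.90 ± 0.25 (adjusted p = 0.010). The 3 h call was lost without intact pool a (adjusted p = 0.053), b (0.11) or c (0.10), leaf-removed pool b (0.14) or c (0.060), or leaf-removed pool a of 6 h (0.051). The 6 h call was lost without leaf-removed pool d (0.057). Without the 5 libraries together the log2 fold changes at 3 and 6 h were 0.51 (adjusted p = 0.0054) and 1.0 (0.00011).

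CCD1 Sobic.010G050300 was scarce, with 207 reads in 18 libraries. It had 8, 8 and 9 reads in leaf-removed pools b, c and d at 1 h against 15, 34 and 22 reads in intact pools b, c and d. All leaf-removed pools were lower, but the log2 difference of -1.01 ± 0.45 did not pass the test (adjusted p = 0.073). It passed without intact pool b of 1 h (-1.29, adjusted p = 0.042) or leaf-removed pool b of 3 h (-1.09, 0.038), and with library totals (-1.25, 0.031). At 3 h there were 12, 4 and 5 reads in leaf-removed pools and 16, 12 and 14 in intact pools, without overlap of CPM values, and a log2 difference of -0.96 ± 0.46 (adjusted p = 0.12), which passed without leaf-removed pool b (-1.48, 0.040). At 6 h the means were 0.272 ± 0.0506 CPM in leaf-removed and 0.272 ± 0.0985 CPM in intact buds (SD, n = 3 each). A pair of further genes with the CCD1 name, Sobic.002G168700 and Sobic.002G168800, had 0 reads and 1 read.

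CCD4, the other cleavage gene, had 1.26, 6.93 and 8.96 CPM in leaf-removed pools b, c and d at 3 h, against 1.61, 1.65 and 1.62 CPM in intact pools a, b and c. Leaf-removed pools c and d were far above the intact pools, while leaf-removed pool b, 1 of the 5 libraries that deviate alike, was below all of them. The log2 fold change was 1.81 ± 0.66 and only just passed (adjusted p = 0.046, edgeR). Without the 5 libraries it was 2.28 (adjusted p = 1.1e-05). At 1 h CCD4 had 1.49, 1.16 and 0.996 CPM in leaf-removed pools and 1.44, 0.275 and 0.939 CPM in intact pools, a log2 difference of 0.47 ± 0.69 (adjusted p = 0.61). At 6 h it had 2.81, 2.87 and 0.525 CPM in leaf-removed pools and 2.04, 3.44 and 1.79 CPM in intact pools, a log2 difference of -0.21 ± 0.65 (adjusted p = 0.83). The groups overlapped at both these times. The 3 h call was lost in 12 of the 18 fits that left out 1 library. Among these, the value was 1.32 without leaf-removed pool d (adjusted p = 0.18), 1.64 without leaf-removed pool c (0.11), and 1.84, 1.83 and 1.80 without intact pools a, b and c (0.10, 0.10 and 0.11). The other 7 left out a library of another time (leaf-removed 1 h pools b, c and d, intact 1 h pool d, leaf-removed 6 h pools a and b, intact 6 h pool a) and kept the value between 1.80 and 1.81, with adjusted p of 0.052 to 0.057.

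**Figure D5:**
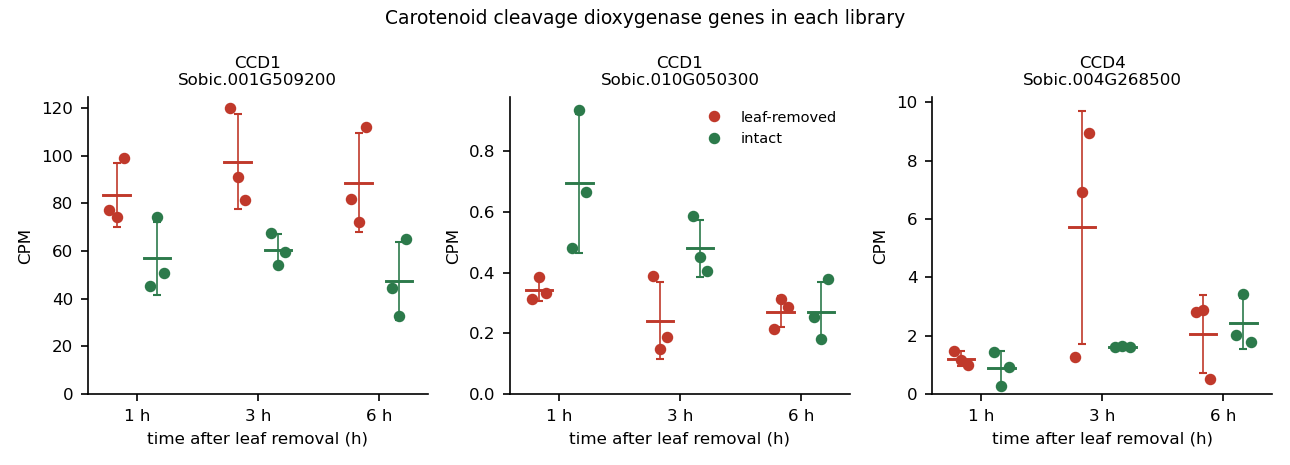
Expression in CPM of the CCD1 genes and CCD4 in each library (points), by time, leaf-removed left of intact, with group means (lines) and SD (bars, n = 3). CCD1 Sobic.001G509200 lies higher in leaf-removed buds at 3 and 6 h without overlap, and 1 of the 3 leaf-removed CCD4 points at 3 h lies below the intact points.

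Levels can be compared between genes on the deposited RPKM scale, which divides by exon length and by library size without TMM. In intact buds the order was the same at the top at all 3 times: CCD1 Sobic.001G509200 (33, 36.0 and 28.5 RPKM at 1, 3 and 6 h), then ZEP (10.3, 14.7 and 12.3 RPKM), then CYP707A4 (1.55, 4.05 and 3.71 RPKM). In leaf-removed buds at 1 h CYP707A4 stood first, at 56.1 RPKM (53.5 to 59.7), above CCD1 Sobic.001G509200 at 42.1 RPKM (35.8 to 51.8) and ZEP at 29.8 RPKM (29.3 to 30.1). These 3 ranges did not overlap. At 3 h in leaf-removed buds CCD1 Sobic.001G509200 was first again (53.8 RPKM), while ZEP (18.1 to 21.6 RPKM) and CYP707A4 (13.1 to 19.8 RPKM) overlapped. At 6 h the order in leaf-removed buds was CCD1 Sobic.001G509200 (47.0 RPKM), ZEP (15.3 RPKM) and CYP707A4 (2.95 RPKM). NCED9 Sobic.001G155300 came next after these 3 in leaf-removed buds after 1 h (3.90 RPKM), and likewise in intact buds (0.501, 1.64 and 1.56 RPKM at 1, 3 and 6 h). Its range overlapped that of CCD4 in the leaf-removed groups of 3 and 6 h and in the intact groups of 1 and 6 h. NCED9 Sobic.002G037400 and CCD1 Sobic.010G050300 were the 2 lowest by mean in every group, at 0.345 RPKM or less. In leaf-removed buds at 1 h the range of NCED9 Sobic.002G037400 (0.110 to 0.552 RPKM) overlapped that of CCD4 (0.436 to 0.622 RPKM).

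The effect of leaf removal on both NCED9 genes, ZEP and CYP707A4 was lower at 3 h than at 1 h by interaction tests. The 4 calls compare with 26.6% of tested genes called in either direction and 13.2% called lower. The log2 difference between the effects was -4.40 ± 1.01 for NCED9 Sobic.001G155300 (adjusted p = 0.0041), -1.21 ± 0.17 for ZEP (7.2e-05) and -3.34 ± 0.35 for CYP707A4 (5.9e-06). For NCED9 Sobic.002G037400 it was -6.85 ± 1.69 (0.0066), a fitted value that depends on the prior count because reads were at 0 in several pools. This gene passed the filter on low counts largely through leaf-removed buds at 1 h, so its calls against 1 h are no added support. Its call was lost with a replicate block within each time (-6.40, adjusted p = 0.10, edgeR), a fit that drew on fewer pools at 3 h. From 3 to 6 h, CYP707A4 alone of the 7 passed, with a further -2.19 ± 0.35 (adjusted p = 0.0023), where 3.25% of tested genes were called and 0.902% were called lower. The same 4 genes passed at 6 h against 1 h, at -4.76 ± 1.02 and -7.37 ± 1.81 for the NCED9 genes Sobic.001G155300 and Sobic.002G037400, -1.25 ± 0.17 for ZEP and -5.53 ± 0.37 for CYP707A4, with 38.1% of tested genes called and 19.5% called lower. The cleavage genes did not pass any of the 3 tests. For CCD4 the difference between effects was 1.34 ± 0.95 at 3 h against 1 h (adjusted p = 0.33) and -2.02 ± 0.92 at 6 h against 3 h (0.29), and without the 5 libraries these were 2.12 (0.0019) and -2.24 (0.0030).

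In intact buds CYP707A4 and ZEP changed with time by an F test over 1, 3 and 6 h (adjusted p = 0.0058 and 0.039, edgeR), where 9.72% of tested genes were called. Leaving out 1 library left 1 of the 7 called in this test in 12 of 18 fits, all but those without intact 1 h pool c, intact 6 h pool a or d, leaf-removed 3 h pool b or d or leaf-removed 6 h pool d. Both genes had their lowest intact mean at 1 h. CYP707A4 rose at 3 h against 1 h by 1.34 ± 0.26 on the log2 scale (adjusted p = 0.0057), and at 6 h against 1 h by 1.21 ± 0.26 (0.0063). ZEP rose at 3 h against 1 h by 0.48 ± 0.12 (0.024), a call lost without intact 1 h pool b (0.090) or d (0.081) or intact 3 h pool a (0.13) or b (0.078). The background was 6.70% of genes called at 3 h against 1 h (3.06% higher), 10.7% at 6 h against 1 h (5.22% higher) and 0.897% at 6 h against 3 h, where 0 of the 7 were called by edgeR, DESeq2 or voom and 1, ZEP, had an unadjusted p under 0.05 in edgeR. NCED9 Sobic.001G155300 averaged 3.1 ± 0.661 CPM at 3 h and 0.968 ± 0.481 CPM at 1 h in intact buds, a log2 difference of 1.68 ± 0.71 that did not pass (adjusted p = 0.18), but did without the 5 libraries (1.31, 0.028). At 6 h against 1 h in intact buds, NCED9 Sobic.001G155300 differed by 1.60 ± 0.71 (0.17) and CCD4 by 1.46 ± 0.68 (0.19), and both passed without the 5 libraries (1.56, 0.013 and 1.21, 0.022). The intact calls of CYP707A4 and ZEP did not hold against a minimum fold of 1.5, with adjusted p of 0.17 and 0.15 for CYP707A4 at 3 and 6 h against 1 h and 1 for ZEP at 3 h.

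Within leaf-removed buds, 5 of the 7 changed at 3 h against 1 h, where 37.1% of tested genes were called, 17.7% higher and 19.4% lower. NCED9 Sobic.001G155300 fell by 2.72 ± 0.72 on the log2 scale (adjusted p = 0.0072, edgeR), ZEP fell by 0.73 ± 0.12 (0.00017) and CYP707A4 fell by 1.99 ± 0.24 (1.1e-05). NCED9 Sobic.002G037400 also fell (adjusted p = 0.0069), to 2 reads at 3 h against 51 reads at 1 h, the group through which it largely passed the filter. CCD4 rose by 2.23 ± 0.68 (0.017), with 5.71 ± 3.99 CPM at 3 h and 1.22 ± 0.253 CPM at 1 h. This CCD4 call was lost by voom (1.75, 0.11). Its adjusted p was 0.073 without leaf-removed 3 h pool d and 0.050, just past the threshold, without leaf-removed 1 h pool c or d. At 6 h against 3 h only CYP707A4 passed of the 7, and fell by 2.32 ± 0.25 (1.4e-05), where 14.3% of genes were called and 6.11% were lower. CCD4 passed too without leaf-removed 3 h pool b (-1.91, 0.031). Without the 5 libraries ZEP (-0.30, 0.045) and CCD4 (-1.48, 0.0024) passed as well, against -0.31 ± 0.12 (0.092) and -1.44 ± 0.65 (0.16) with all libraries. These comparisons share the 3 h and 1 h libraries with the effects above and are no separate evidence for them.

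Other genes of the pathway were read from 6 lists of Arabidopsis loci, without the 7 genes described so far. Of 13 tested genes of ABA synthesis, 4 rose and 4 fell at 1 h, 3 rose and 2 fell at 3 h, and 2 rose and 1 fell at 6 h. Over all tested genes, 24.8%, 17.8% and 18% were called higher at 1, 3 and 6 h and 24.1%, 16.2% and 15.9% lower, and these shares are the background for each list. The list's median log2 difference was 0.19, -0.16 and -0.16 at the 3 times, against -0.01, 0.00 and -0.03 over all tested genes. No further gene in the table carried an NCED locus. Of the risers at 1 h, ABA4 Sobic.003G087100, which is needed for neoxanthin synthesis in Arabidopsis, averaged 34.5 ± 11.4 CPM in leaf-removed and 5.45 ± 2.64 CPM in intact buds, a log2 fold change of 2.66 ± 0.47 (adjusted p = 0.00021, edgeR). Its differences at 3 and 6 h were 0.38 (0.55) and -0.37 (0.56), and that at 3 h passed without the 5 libraries (0.77, 0.0029). ABA2 Sobic.001G042000, the dehydrogenase that follows NCED, rose by 1.52 ± 0.19 at 1 h (9.4e-06) and 1.07 at 3 h (0.00046), with 0.50 at 6 h (0.054). A second ABA2 gene, Sobic.006G041700, rose by 0.94 ± 0.22 at 1 h (0.0019).

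AAO2 Sobic.002G107000, an aldehyde oxidase gene, rose at all 3 times. It averaged 417 ± 87.5 CPM in leaf-removed and 219 ± 30.4 CPM in intact buds at 1 h, and 815 ± 157 CPM and 187 ± 48.7 CPM at 6 h. Its log2 fold changes were 0.93 ± 0.20 (adjusted p = 0.00094, edgeR), 1.33 (8.5e-05) and 2.13 ± 0.20 (1.7e-06) at 1, 3 and 6 h. The 4 genes of the list that fell at 1 h, Sobic.001G062500, Sobic.002G107200, Sobic.002G107400 and Sobic.002G107600, also carry the AAO2 name, and they were singled out after their values were seen. Their log2 changes ran from -0.93 to -0.68, of which that of Sobic.002G107400 did not pass without the 5 libraries (-0.60, 0.067). For these genes 87.5% to 100% of their reads were unique, so part of the reads of this family can be shared between neighbours.

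The breakdown list held few other genes, 2 tested of 3. CYP707A1 Sobic.004G268700 had 12.7 ± 0.881 CPM in leaf-removed and 30.2 ± 5.06 CPM in intact buds at 6 h and fell by 1.24 ± 0.33 on the log2 scale (adjusted p = 0.0091, edgeR). Its differences at 1 and 3 h were -0.86 (0.051) and -0.45 (0.31), and that at 1 h passed without the 5 libraries (-0.94, 0.023) or with library totals (-1.1, 0.011). This 8'-hydroxylase gene therefore had a negative value at each time, while CYP707A4 Sobic.002G225400 rose at 1 and 3 h. A second gene named CYP707A4, Sobic.007G156300, averaged 4.10 ± 1.07 CPM in leaf-removed and 1.85 ± 1.12 CPM in intact buds at 1 h, a log2 difference of 1.15 ± 0.53 that did not pass (0.083), but did without the 5 libraries (0.95, 0.036).

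Of 15 tested genes of the carotenoid backbone, which supplies the substrate, 5 rose and 5 fell at 1 h, 2 rose and 1 fell at 3 h and 4 rose at 6 h (median log2 differences -0.38, 0.12 and 0.33). Phytoene synthase PSY Sobic.008G180800, the entry enzyme, averaged 42.1 ± 1.32 CPM in leaf-removed and 12.4 ± 2.45 CPM in intact buds at 1 h, and rose by 1.77 ± 0.15, 1.80 and 1.67 at 1, 3 and 6 h (adjusted p = 1.7e-07, 4.2e-07 and 1.6e-06, edgeR). Lycopene epsilon-cyclase LCYE Sobic.003G197400, which leads towards lutein and away from zeaxanthin, fell by 1.44 ± 0.15 at 1 h (1.2e-06), and its value at 3 h was -1.0 (8.4e-05). The carotenoid hydroxylase CYP97A3 Sobic.004G346000 fell by 1.5 ± 0.21 at 1 h (2.3e-05), and Z-ISO Sobic.008G096800, an isomerase, fell by 0.75 ± 0.17 (0.0019). The counts at 1 h were 2 higher and 7 lower with library totals in place of TMM, and 4 higher and 8 lower without the 5 libraries. With library totals they were 1 higher and 2 lower at 3 h and again at 6 h, with median log2 differences of -0.01 and 0.15. Without the 5 libraries they were 3 higher and 2 lower at 3 h and 5 higher and 0 lower at 6 h.

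Of the other carotenoid cleavage and strigolactone genes, 4 of 14 had enough reads to test. MAX1 Sobic.010G170400, whose Arabidopsis match acts in strigolactone synthesis, averaged 0.202 ± 0.120 CPM in leaf-removed and 1.60 ± 0.179 CPM in intact buds at 1 h, and fell by 3.00 ± 0.45 (adjusted p = 5e-05, edgeR). The other calls of this list, named after their values were seen, were MAX1 Sobic.004G095500, lower at 3 h (-1.91, 0.0090) and 6 h (-2.23, 0.0034), and CCD8 Sobic.007G170300, higher at 3 h (2.94 ± 1.06, 0.042) on 65 reads against 8. The CCD8 call was lost without the 5 libraries (2.34, 0.073).

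Of the genes matched to ABA transporters, 8 were called higher at 1 h, as were 8 of those matched to PP2C phosphatases. PP2C phosphatases are negative regulators of ABA signalling that ABA itself induces in Arabidopsis. At 1 h, 24.8% of all tested genes were higher. Of 15 tested transporter genes, 8 rose and 0 fell at 1 h by edgeR. At 3 h 1 rose and 1 fell, and at 6 h 1 rose and 2 fell. The 18 genes of this list matched only 3 Arabidopsis loci. Most of those tested, and most that rose at 1 h, matched the single locus of ABCG40. Several have neighbouring identifiers on chromosome 3, so these counts are not counts of separate known ABA transporters. The median log2 differences were 1.37, 0.17 and -0.28. The median at 3 h was 0.07 with the 1 gene that had a group without reads set to its bound of 3 reads. At an unadjusted p under 0.05, 0 were lower at 1 h, and with library totals 1 was called lower. ABCG40 Sobic.003G215800, an ABA importer in Arabidopsis, rose by 4.15 ± 0.45 at 1 h (adjusted p = 1.6e-06), 2.43 at 3 h (0.00040) and 1.22 at 6 h (0.035), where it did not pass with library totals (1.02, 0.059). Sobic.004G087800 (1.65 ± 0.27, 0.00010) and Sobic.002G174000 (1.92 ± 0.36, 0.00037) of the same family rose at 1 h, and Sobic.003G216232 (1.37 ± 0.24, 0.00018) is uncertain because 39.3% of its reads were unique. Of 11 tested PP2C genes 8 rose and 0 fell at 1 h, 0 rose and 4 fell at 3 h, and 0 rose and 6 fell at 6 h, with medians of 2.48, -0.24 and -1.18. At an unadjusted p under 0.05, 0 were lower at 1 h, 1 was higher at 3 h and 0 were higher at 6 h. Without the 5 libraries 2 were called higher at 3 h. HAI2 Sobic.001G424400 averaged 100.1 ± 35.2 CPM in leaf-removed and 4.09 ± 1.84 CPM in intact buds at 1 h (4.61 ± 0.42, 2.9e-07). HAB1 Sobic.009G213000 rose by 2.90 ± 0.17 at 1 h (2.1e-09), and its log2 values at 3 and 6 h were -1.21 ± 0.16 (2.9e-05) and -0.99 ± 0.16 (0.00020). HAB1 Sobic.003G198200 (1.59 ± 0.10, 6.2e-09) and HAB2 Sobic.009G255900 (1.41 ± 0.13, 2.2e-07) rose at 1 h as well.

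The genes whose log2 CPM followed each member most closely over the 18 libraries were found among tested genes with an Arabidopsis symbol, by Pearson correlation, as a description in which the libraries share groups and depth. For NCED9 Sobic.001G155300 these were CRK10 (r = 0.935), AtEIL1 (0.934) and QRT3 (0.929). For NCED9 Sobic.002G037400 they were XERICO Sobic.002G239200 (0.918), AtEIL1 (0.896) and XERICO Sobic.007G221000 (0.894). ZEP was followed by AIP2 (0.966), ACX3 (0.966) and ATCFIM-25 (0.962), and CYP707A4 by HCT (0.966), THA1 (0.965) and ATGID1C (0.964). CCD1 Sobic.001G509200 was followed by ZIFL1 (0.961), BGLU46 (0.948) and ATSERAT3;2 (0.944), and CCD1 Sobic.010G050300 by ERG9 (0.895), ELF9 (0.849) and ATDCL2 (0.844). CCD4 was followed by AtIDD11 (0.928), ATKAO2 (0.914) and ATGPAT6 (0.913). By Spearman correlation, 6 of these 21 genes were also among the closest 3 of their member, and 0 for NCED9 Sobic.001G155300 and CCD1 Sobic.010G050300. Their Spearman ranks ran from 1 to 170, with ATKAO2 at 170 and QRT3 at 98. Among the 7 genes themselves, r was 0.869 between the NCED9 genes, 0.925 between CYP707A4 and ZEP, 0.546 between CYP707A4 and NCED9 Sobic.001G155300, and -0.769 between CCD4 and CCD1 Sobic.010G050300.

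In the authors' deposited table, which holds their own signed folds and FDR-corrected p-values, CYP707A4 was 38.3-fold higher after leaf removal at 1 h (p = 1.25e-49) and 4.0-fold higher at 3 h (0.000118). In the authors' deposited table ZEP was 3.29-fold higher at 1 h (4.56e-08), NCED9 Sobic.001G155300 was 7.31-fold higher at 1 h (0.0221) and CCD1 Sobic.001G509200 was 1.87-fold higher at 6 h (0.0130). The other values of the 7 genes in the authors' deposited table had an FDR-corrected p above 0.05, among them ZEP at 3 h (1.44-fold, 0.596) and 6 h (1.41-fold, 0.930), CCD4 at 3 h (3.13-fold, 0.774) and NCED9 Sobic.002G037400 at 1 h (3.31-fold, 1).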

How the data were processed

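The deposited table holds, per the file headers, for each gene and library a total and a unique count over exons, a count over introns, an exon length and an RPKM, which the authors scaled per library and by exon length. The same deposited table holds the authors' signed fold change (a score that is negative for a fall) of leaf-removed over intact buds and their FDR-corrected p-value at each time. Per the labels' protocols, Trizol extraction, DNase and a column clean-up were followed by TruSeq libraries and 125 bp reads on an Illumina HiSeq. The aligner and genome build are not given in the sources used here, nor is the use of strand in counting, so reads of overlapping or antisense genes cannot be told apart. Exon reads of the 7 genes were 97.9% to 100% unique.

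The main test was the quasi-likelihood F test of edgeR 4.0.16 (R 4.3.3) on total exon counts, in a single model of the 6 groups (residual df 12) after TMM scaling. Its default filter by group kept 21852 of 34211 genes, and their biological coefficient of variation was 24.9%. Leaf-removed minus intact was tested at each time, differences between times as interactions, and intact times with an F test. P-values were adjusted by Benjamini-Hochberg over all tested genes and called under 0.05. SE is the log2 fold change divided by the root of F. Intron reads had a fit of their own with 14725 genes. Log2 CPM used a prior count of 2. Alternatives used DESeq2 1.42.0 and limma 3.58.1, and figures matplotlib 3.10.9 under Python 3.11.15. The code was run on simulated counts with few changed genes and without the component shared by the 5 libraries. That run cannot show how the fit performs on these data.

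All 7 genes are reported whatever their result. From each pathway list up to 4 genes called at 1 h (or later where none was) are named by p, plus further genes with a CYP707A or NCED locus. The members and lists were chosen with earlier results of these data known.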

Additional observations from a re-analysis of the deposited data

Results flagged for a closer look

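The effect of leaf removal differed between times for 4 of the 7 genes, by interaction tests in edgeR with Benjamini-Hochberg adjustment. At 3 h against 1 h the log2 difference between effects was -4.40 for NCED9 Sobic.001G155300, -6.85 for NCED9 Sobic.002G037400, -1.21 for ZEP and -3.34 for CYP707A4. At 6 h against 1 h it was -4.76 for NCED9 Sobic.001G155300, -7.37 for NCED9 Sobic.002G037400, -1.25 for ZEP and -5.53 for CYP707A4. CYP707A4 differed by -2.19 at 6 h against 3 h. With a replicate block within each time, the calls of NCED9 Sobic.002G037400 were lost in edgeR. Its values were -6.40 at 3 h against 1 h (adjusted p = 0.10) and -5.87 at 6 h against 1 h (0.18). The CYP707A4 call at 6 h against 3 h was lost with that block as well (-1.88, 0.29). That fit drew on fewer pools at 3 and 6 h, as given below. Both NCED9 genes had a positive effect at 1 h and negative values at 3 and 6 h that did not pass the test at those times. NCED9 Sobic.002G037400 passed the filter on low counts largely through leaf-removed buds at 1 h, so its differences against 1 h are no added support. The differences between times show that the effect was lower at 3 and 6 h than at 1 h. They cannot tell a turn of direction from a rise that faded. Groups of 3 libraries were too small for a formal outlier test of single samples, and fits that left out 1 library at a time are given below.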

How the results depend on the processing

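Over 21 values of leaf removal (7 genes at 3 times) and the alternatives to scaling, filter, tool, block, minimum fold and libraries, 224 kept direction and call, 19 lost the call, 11 gained one and 9 changed sign. The cause of these changes was not tested. Library totals in place of TMM moved the median of all genes by -0.25, -0.12 and -0.21 (log2) at 1, 3 and 6 h and put 36.5%, 40.6% and 33.1% of calls higher, against 50.8%, 52.4% and 53.1%. Low counts limit NCED9 Sobic.002G037400, CCD1 Sobic.010G050300 and CCD4, where few reads decide a value. The fits without the 5 libraries that deviate alike, on unique reads, and with intron share as covariate were chosen after seeing the data. With a replicate block within each time, a comparison of 1 treatment between times uses the fitted level of a single letter at each time. Its counts and values for intact or leaf-removed buds over time are given below but cannot show whether those calls hold.

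Genes called at 1 h were 5547 with a minimum fold of 1.5. At 3 h they were 2596 with a replicate block within each time and 2666 with the minimum fold, and at 6 h 2454 and 2194. For the effect at 3 h against 1 h they were 2750 with that block and 2480 with the minimum fold, and for 6 h against 1 h 4448 and 4599. For 6 h against 3 h (710 in the main test) they were 1410 by DESeq2, 448 with a replicate block over all times, 0 with the block within each time, 109 with the minimum fold, 3809 without the 5 libraries and 1971 with the intron share as covariate. For intact buds over time (2125) they were 1198 with the block over all times, 16 within each time, 4366 without the 5 libraries and 4651 with the covariate. For leaf-removed buds, 3 h against 1 h gave 1471 with the block within each time and 3164 with the minimum fold, and 6 h against 3 h gave 148, 655, 5345 without the 5 libraries and 6537 with the covariate. The counts of 16, 1471 and 148 with the block within each time cannot show whether these time comparisons hold, for the reason given above.

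Of the 7 genes, those called at 3 h were 2 with library totals, 2 with either replicate block and 1 with the minimum fold. At 6 h they were 1 with library totals, 0 with the block within each time, 0 with the minimum fold and 4 without the 5 libraries or with the covariate. For 6 h against 3 h they were 0 with that block and 2 without the 5 libraries. For intact buds over time they were 1 with library totals, no filter or the block over all times, 0 with the block within each time and 5 without the 5 libraries. For leaf-removed buds at 3 h against 1 h they were 1 with that block and 3 with the minimum fold, and at 6 h against 3 h 3 without the 5 libraries or with the covariate. The counts with that block for intact or leaf-removed buds over time carry the same limit.

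Whether the letters of the pools mark shared blocks is not stated, and the main test did not treat them as pairs. Deviations of same-letter libraries correlated between -0.405 and 0.528 over 7 pairs, too few to exclude shared blocks. With the replicate block within each time the log2 effect was 3.59 for NCED9 Sobic.002G037400 at 1 h (adjusted p = 0.068), 0.88 for CCD1 Sobic.001G509200 (0.058) and 0.89 for CCD4 (0.53) at 3 h, and 0.51 for ZEP (0.064), 0.83 for CCD1 Sobic.001G509200 (0.069) and 0.07 for CYP707A4 (0.90) at 6 h. In intact buds that block gave 1.56 (0.55) and 0.67 (0.60) for CYP707A4 at 3 and 6 h against 1 h and 0.36 (0.58) for ZEP at 3 h. These intact values compare a single letter per time and cannot decide those calls. With the block over all times the log2 effect of leaf removal was 0.66 for CCD1 Sobic.001G509200 (0.089) and 1.99 for CCD4 (0.088) at 3 h. With library totals, CCD1 Sobic.010G050300 had -1.25 at 1 h (0.031), CCD1 Sobic.001G509200 0.57 (0.12) and CCD4 1.67 (0.055) at 3 h, and ZEP 0.31 at 6 h (0.093). With the minimum fold, adjusted p was 0.89 for ZEP (0.54), 0.51 for CCD1 Sobic.001G509200 (0.69) and 0.15 for CCD4 (1.81) at 3 h, and 0.97 for ZEP (0.50) and 0.20 for CCD1 Sobic.001G509200 (0.90) at 6 h. CCD4 at 3 h was 1.32 by voom (0.17) and 1.86 from the 6 libraries of that time alone (0.058). DESeq2 gave 0.58 for CCD1 Sobic.001G509200 at 1 h (0.049) and -3.92 for NCED9 Sobic.002G037400 at 6 h (0.048).

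Without the 5 libraries CCD1 Sobic.001G509200 had 0.65 at 1 h, CCD4 2.28 at 3 h, and at 6 h NCED9 Sobic.001G155300 -1.54, NCED9 Sobic.002G037400 -3.95, CCD1 Sobic.010G050300 0.30 and CCD4 0.0467. With the intron share as covariate the values at 1 h were 2.0 for NCED9 Sobic.002G037400 (0.079), 0.98 for CCD1 Sobic.001G509200 (8.9e-06) and -0.45 for CCD4 (0.45). At 3 h they were -2.02 for NCED9 Sobic.001G155300 (0.0010), -4.57 for NCED9 Sobic.002G037400 (0.0013) and 0.98 for CCD4 (0.060), and at 6 h -1.53 (0.0067) and -3.48 (0.017) for the NCED9 genes. CCD1 Sobic.010G050300 at 6 h, near 0 in the main test, was 0.0192 by DESeq2, 0.0207 with its size factors, 0.0177 with the covariate, 0.0111 without the filter and 0.0318 by voom.

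Values that changed sign without a call were, at 3 h against 1 h, -0.14 and -0.13 for CCD1 Sobic.001G509200 (without the 5 libraries, covariate) and -0.0549, -0.76 and -0.26 for CCD1 Sobic.010G050300 (voom, without the 5, covariate). At 6 h against 3 h they were 0.35, 1.03 and 0.49 for NCED9 Sobic.001G155300 and 0.95, 0.53 and 1.1 for NCED9 Sobic.002G037400 (voom, block within each time, covariate), 0.0079 and 0.11 for ZEP (block over all times, without the 5) and -0.0478 for CCD1 Sobic.001G509200 (block within). At 6 h against 1 h the covariate gave -0.10 for CCD1 Sobic.001G509200 and 0.14 for CCD4. In intact buds the block within each time gave -0.41 and 0.13 for CCD1 Sobic.001G509200 at 3 and 6 h against 1 h and -2.20 for NCED9 Sobic.002G037400 at 6 h, where the covariate gave 0.14 and -0.18. In leaf-removed buds CCD1 Sobic.001G509200 had -0.10 at 3 h against 1 h and 0.48 at 6 h against 3 h with that block, and NCED9 Sobic.001G155300 had 0.09 by voom. The values of that block for intact or leaf-removed buds over time carry the limit given above.

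Leaving out 1 library at a time gave 9360 to 11591, 5552 to 7848 and 5865 to 8120 genes called at 1, 3 and 6 h, and 4 to 5, 2 to 5 and 1 to 3 of the 7. For the differences between effects it gave 4734 to 6173 (3 h against 1 h), 447 to 1073 (6 h against 3 h) and 7232 to 9064 genes (6 h against 1 h), and 4, 1 and 4 of the 7 in every fit. It gave 1235 to 2703 genes and 1 to 2 of the 7 for intact buds over time, 6601 to 8711 and 4 to 5 for leaf-removed buds at 3 h against 1 h, and 1943 to 3873 and 1 to 2 at 6 h against 3 h. Effects ranged at 1 h from 2.69 to 3.42 and 3.13 to 4.38 for NCED9 Sobic.001G155300 and Sobic.002G037400, 1.61 to 1.83 for ZEP, 5.14 to 5.67 for CYP707A4, 0.33 to 0.79 and -1.29 to -0.74 for CCD1 Sobic.001G509200 and Sobic.010G050300 and 0.03 to 0.93 for CCD4. In the same order they ranged at 3 h from -1.66 to -0.67, -5.83 to -2.54, 0.48 to 0.62, 1.82 to 2.20, 0.52 to 0.83, -1.48 to -0.71 and 1.32 to 2.29. At 6 h they ranged from -2.12 to -0.94, -5.48 to -2.69, 0.42 to 0.68, -0.22 to 0.0821, 0.70 to 1.25, -0.20 to 0.37 and -0.52 to 0.23. Some uncalled differences changed sign within these ranges. At 3 h against 1 h CCD1 Sobic.001G509200 ranged from -0.0469 to 0.37 and CCD1 Sobic.010G050300 from -0.3807 to 0.3806. At 6 h against 3 h NCED9 Sobic.001G155300 ranged from -0.9031 to 0.2754, NCED9 Sobic.002G037400 from -2.3677 to 2.2097 and ZEP from -0.13 to 0.0951. In intact buds at 3 h against 1 h CCD1 Sobic.001G509200 ranged from -0.0665 to 0.3202. In leaf-removed buds at 6 h against 3 h NCED9 Sobic.002G037400 ranged from -2.7092 to 1.8665, CCD1 Sobic.001G509200 from -0.3394 to 0.0433 and CCD1 Sobic.010G050300 from -0.0766 to 0.69.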
